A study of Homo sapiens with 4 samples.

Results

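This account covers the BCL6 peaks over the lectin genes around CD69 and CLECL1, a 320 kb stretch of chromosome 12 (hg38, 9580000 to 9900000). The members are the deposited peaks whose summit lies between these bounds: 23 of 5237 in replicate 1 and 15 of the 3536 that replicate 2 gave. The interval was selected by position with earlier results of the same peaks known, so the number and strength of its peaks are a description and carry no test. The peaks come from CUT&RUN, in which an antibody guides a nuclease to chromatin and the released fragments are sequenced, on SUDHL5 nuclei; this established line comes from a diffuse large B-cell lymphoma. Each of 2 biological replicates was treated with a BCL6 antibody, no compound is named for either, and the cells were grown in RPMI with serum and antibiotics. A further 2 libraries with normal rabbit IgG are labelled, and their values were not analysed here. All libraries share 1 cell line, so the replicates show how this line varies between preparations and nothing beyond it.

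BCL6 is a zinc finger repressor that recruits co-repressors to its sites and holds the germinal centre B cell programme in place. The genes of the interval belong to the natural killer gene complex and encode C-type lectin-like proteins of the cell surface. CD69 appears on lymphocytes soon after activation and keeps them in tissue by drawing the receptor S1PR1 from the surface. Several of the other products form ligand and receptor pairs: CLEC2D (LLT1) is the ligand of KLRB1 (CD161), CLEC2B (AICL) that of KLRF1 (NKp80), and CLEC2A (KACL) that of KLRF2 (NKp65). CLECL1 (DCAL1) is a lectin-like protein found on dendritic cells and B cells.

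RefSeq promoter sequences (GRCh38.p14, the assembly of hg38) were matched for 2 of the 4 genes after which the interval was chosen, KLRB1 and CLEC2D. They are shown as the 250 bases before the annotated start, as 1 gene with peaks beside its start and 1 with no peak over it. The promoter of the long non-coding RNA LOC105369728 is added because a replicate 1 peak covers it whole. That of KLRF2 is added because it holds a motif match, as no other promoter shown here does. A promoter entry also exists for CLEC2A, and it is not shown. Capitals mark a match to TTCNNNGAA, the spaced half-sites within the BCL6 consensus TTCCTAGAA. Both were searched on both strands, and every TTCCTAGAA is also a TTCNNNGAA.
KLRB1 (chr12:9607917-9608166, minus strand, its start 40.2 kb from the nearest replicate 1 summit and 9.71 kb from that of replicate 2): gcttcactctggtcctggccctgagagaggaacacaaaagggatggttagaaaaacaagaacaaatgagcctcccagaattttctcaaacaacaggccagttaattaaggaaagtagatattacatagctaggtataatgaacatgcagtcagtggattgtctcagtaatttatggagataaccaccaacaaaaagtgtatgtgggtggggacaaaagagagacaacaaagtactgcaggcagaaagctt
LOC105369728 (chr12:9647989-9648238, minus strand, under a replicate 1 peak): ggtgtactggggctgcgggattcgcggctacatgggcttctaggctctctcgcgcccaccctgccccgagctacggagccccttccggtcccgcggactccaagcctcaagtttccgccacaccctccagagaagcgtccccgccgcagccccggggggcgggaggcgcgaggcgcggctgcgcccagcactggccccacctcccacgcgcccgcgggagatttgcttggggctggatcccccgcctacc
CLEC2D (chr12:9669463-9669712, plus strand, between peaks of the replicates): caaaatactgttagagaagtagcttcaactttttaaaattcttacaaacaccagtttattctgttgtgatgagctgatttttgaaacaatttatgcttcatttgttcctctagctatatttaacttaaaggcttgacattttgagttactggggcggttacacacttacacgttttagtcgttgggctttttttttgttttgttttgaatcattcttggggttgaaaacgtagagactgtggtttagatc
KLRF2 (chr12:9881239-9881488, plus strand, no peak): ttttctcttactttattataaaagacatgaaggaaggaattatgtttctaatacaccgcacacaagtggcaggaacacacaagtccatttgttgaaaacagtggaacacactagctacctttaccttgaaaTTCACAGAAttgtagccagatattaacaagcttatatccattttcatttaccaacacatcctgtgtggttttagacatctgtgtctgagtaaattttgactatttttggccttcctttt

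Among these 4 promoters, TTCNNNGAA was matched once, in that of KLRF2, and TTCCTAGAA was not matched. Of 34943 RefSeq promoters of the same length, 6.56% held TTCNNNGAA and 0.315% held TTCCTAGAA. The GC content was 72.8% for LOC105369728, 41.2% for KLRB1, 33.6% for CLEC2D and 34.8% for KLRF2, against a median of 58% over all promoters (middle 50% from 46.4% to 68%). The promoter of KLRF2 had no peak within 10 kb of its start in either replicate. Since LOC105369728 was added for its peak and KLRF2 for its match, no relation of peaks to GC content or motif can be read from these 4.

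Each deposited peak carries the authors' fold enrichment (summit over local background) and −log10 of q, and the summit pileup and the background behind them were solved from these files. The pileup is the number of fragments stacked at the summit, and the background is the number the peak caller set against it there. All 38 peaks of the interval gave a whole-number pileup within 0.001 on the −log10 p scale. Median summit pileups were 33 in replicate 1 and 27 in replicate 2, and the peaks covered 20.1 kb and 11.2 kb of the interval. Read totals are unknown, and the 95% Poisson intervals given with pileups cover counting error only. Backgrounds are given without an interval, although they too rest on few fragments.

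Merging peaks that shared at least 1 bp gave 27 regions, of which 10 held a peak of each replicate, 12 were in replicate 1 only and 5 in replicate 2 only. Of the 23 replicate 1 peaks, 11 (47.8%) overlapped a replicate 2 peak, where 25.7% of all replicate 1 peaks on chromosomes 1 to 22 and X did. Of the 15 replicate 2 peaks, 10 (66.7%) overlapped a replicate 1 peak, where 38.4% of all did. With tiles of 320 kb laid over chromosomes 1 to 22 and X, 8600 of 9479 held no region of both lists and 4 (0.0422%) held at least 10. One of these 4 overlaps the lectin interval, and it was the only one on chromosome 12. The densest tile held 25.

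The interval stands apart from its surroundings by position. The outermost peaks inside it had summits at 9617631 (replicate 2, fold enrichment 4.05, pileup 18) and 9870235 (replicate 1, 3.28, pileup 28). The first peaks outside it lay 296 kb below the lower bound in replicate 1 (5.08, pileup 20) and 1002 kb below it in replicate 2 (3.22, pileup 16). Above the upper bound they lay 314 kb away in replicate 1 (2.79, pileup 21) and 263 kb away in replicate 2 (4.54, pileup 17). No threshold of the rule therefore passes between neighbouring peaks.

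**Figure D1:**
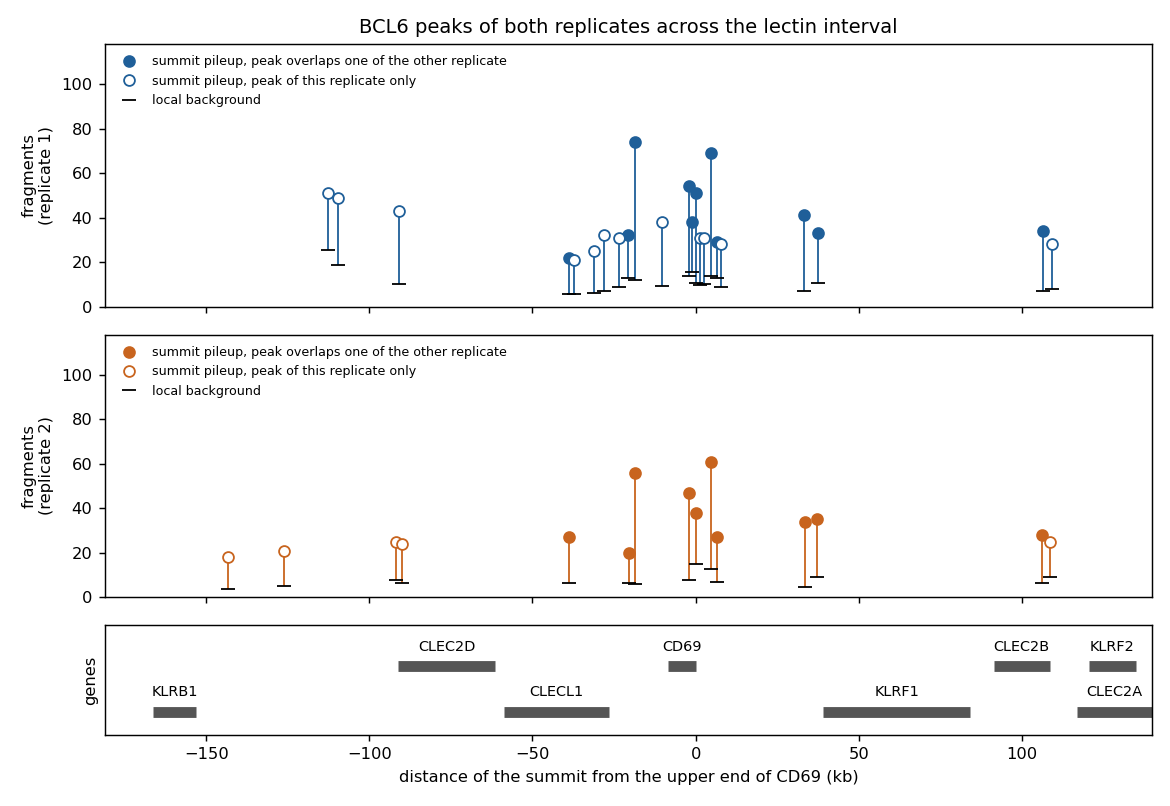
Summit pileup (circles, fragments) and local background (dashes) of every peak of the interval in replicate 1 (upper panel) and replicate 2 (middle panel), by distance in kb from the upper end of CD69, with the protein-coding genes below. Filled circles are peaks that overlap a peak of the other replicate: they sit between 39.0 kb below and 106.5 kb above the upper end of CD69, and none lies at KLRB1 or CLEC2D.

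The peaks gathered at CD69, in the space between it and CLECL1, and in the upper part of CLECL1. CD69 spans 9752486 to 9760901, 8.42 kb. It is known to be read from its upper end towards its lower end, which is background knowledge, since its strand was not taken from the tables used here. Within 10 kb of the gene lay 9 summits of replicate 1 and 4 of replicate 2, and 4 regions of both lists. CLECL1, of 32.2 kb, had 4 replicate 1 summits inside it and 1 of replicate 2.

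The most enriched region of the interval was found between CLECL1 and CD69. It spans 9741298 to 9743244, with its summit 7.83 kb above the upper end of CLECL1 and 18.7 kb below the upper end of CD69. Replicate 1 gave a fold enrichment of 5.86 and a −log10 q of 28.6, and replicate 2 gave 8.22 and 29.4. The pileups were 74 (95% interval 58.1 to 92.9) and 56 (42.3 to 72.7) over backgrounds of 11.8 and 5.93. The counting intervals of the pileups overlap, while the background of replicate 1 was 1.99 times that of replicate 2, the widest such ratio of the 10 regions. Both summits fell within 5 bp of each other. Among the 1311 regions of both lists on chromosomes 1 to 22 and X, this one ranked 66 by the smaller fold enrichment, 21 by the smaller −log10 q and 45 by the smaller pileup.

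A second region of high pileup lay 4.63 kb above the upper end of CD69, upstream of the gene if that direction is taken. Conserved non-coding elements upstream of CD69 are known to act as enhancers in lymphocytes, and whether this region is one of them was not tested. It spans 9764688 to 9766235. The pileup was 69 (53.7 to 87.3) in replicate 1 and 61 (46.7 to 78.4) in replicate 2, and these counting intervals overlap. The backgrounds of 13.8 and 12.8 were high in both, at the 94.6th and 97.6th percentile of all peaks of their list. The region ranked 30 of 1311 by pileup and 33 by background, but 218 by fold enrichment (4.74 and 4.48). Its replicate 1 peak of 1548 bp was wider than the replicate 2 peak of 313 bp, with summits 20 bp apart.

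Inside CD69, 2.02 kb from its upper end, a region from 9757997 to 9760009 was found in both lists. It joins 2 replicate 1 peaks and 1 replicate 2 peak. The stronger replicate 1 peak had a pileup of 54 (40.6 to 70.5) and the replicate 2 peak one of 47 (34.5 to 62.5), with summits 9 bp apart. The counting intervals of the pileups overlap, and the fold enrichments were 3.73 and 5.47, over backgrounds of 13.8 and 7.77. The weaker replicate 1 peak, 1.18 kb from the upper end, had a pileup of 38 over a background of 15.7, a fold enrichment of 2.33.

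At the upper end of CD69 itself the replicates differed in the other direction. The region from 9760315 to 9761675 peaked 225 bp beyond the gene, with summits 4 bp apart. Replicate 1 gave a fold enrichment of 4.40 (pileup 51, 38.0 to 67.1, background 10.8) and replicate 2 gave 2.46 (pileup 38, 26.9 to 52.2, background 14.8). It was 1 of the 2 regions of both lists whose background was lower in replicate 1. The ratio of its backgrounds, replicate 1 over replicate 2, was 0.729, the lowest of the 10. Its −log10 q was 14.0 in replicate 1 but 3.16 in replicate 2, although the counting intervals of its pileups overlap. Whether the region itself differs between the replicates was not tested.

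The other peaks within 10 kb above CD69 were weaker than the one 4.63 kb above it. A region from 9767263 to 9768178, 6.70 kb above the gene, was near the calling threshold in replicate 1 (−log10 q 1.51, fold enrichment 2.18) and clearer in replicate 2 (4.77 and 3.53). Its pileups of 29 and 27 were alike, and its backgrounds were 12.8 and 6.94. Replicate 1 alone had 3 more peaks on this side, 1.24, 2.50 and 7.86 kb above the gene. Their fold enrichments were between 2.82 and 3.02, and their pileups between 28 and 31. Below CD69, 1.78 kb from its lower end, replicate 1 alone had a peak of fold enrichment 3.84, with a pileup of 38 (26.9 to 52.2) over 9.15.

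**Figure D2:**
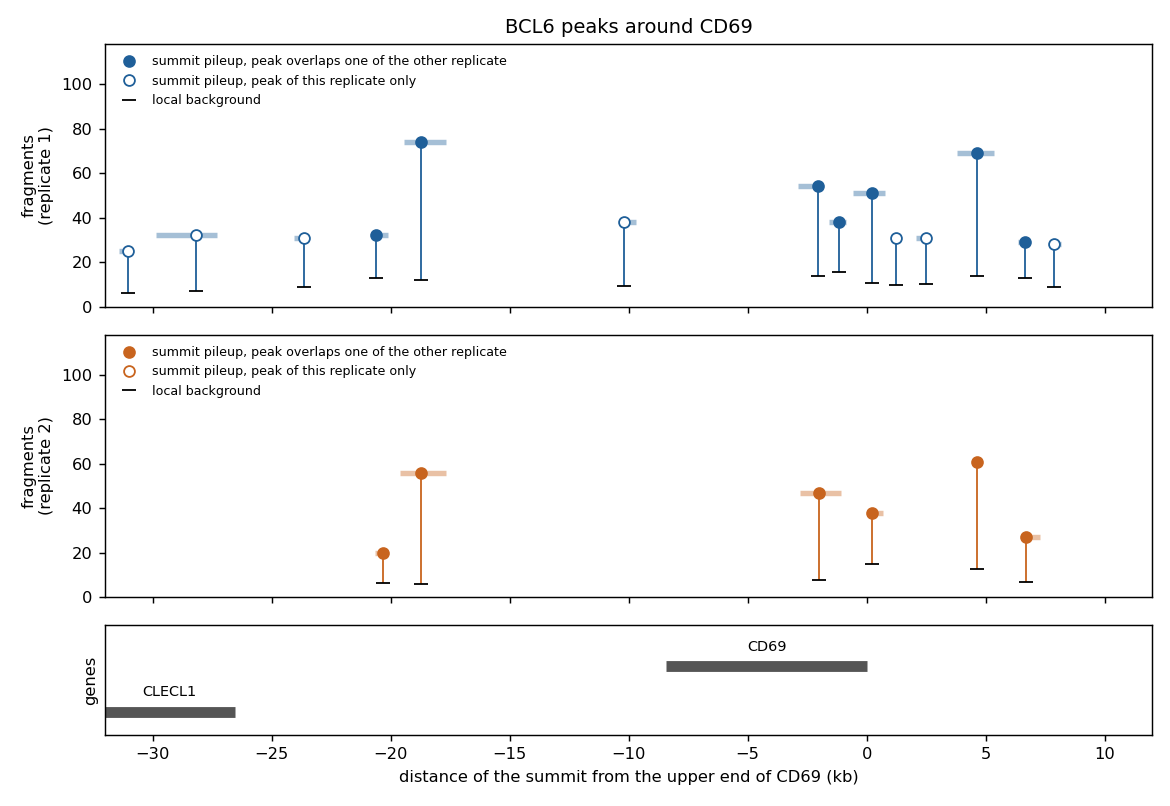
Peaks from the upper part of CLECL1 to 12 kb above CD69: horizontal bars give the extent of each peak, circles the summit pileup and dashes the local background (fragments) in replicate 1 (upper panel) and replicate 2 (middle panel), by distance in kb from the upper end of CD69. The summits of the regions 18.7 kb below, 2.02 kb below, 0.225 kb above and 4.63 kb above coincide between the panels, while the peak 10.2 kb below and those 1.24, 2.50 and 7.86 kb above appear in replicate 1 only.

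CLECL1 had 1 region of both lists inside it. It spans 9721524 to 9722392, 12.2 kb from the upper end of the gene. The fold enrichments were 3.34 and 3.65, and the pileups 22 (13.8 to 33.3) and 27 (17.8 to 39.3) over backgrounds of 5.90 and 6.68. Replicate 1 had 3 further summits inside CLECL1, 1.62, 4.48 and 10.7 kb from the upper end, with fold enrichments of 4.19, 3.71 and 3.19. The first of these peaks was 2559 bp wide, the widest of the interval, and no replicate 2 peak came closer than 6.65 kb to it. A replicate 1 peak 2.93 kb above the gene (3.25) had no partner either, and the nearest replicate 2 peak began 2.78 kb away.

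Between CLECL1 and the region 7.83 kb above it, a region from 9740115 to 9740798 was in both lists at low strength. Its fold enrichments were 2.40 and 2.74, its pileups 32 (21.9 to 45.2) and 20 (12.2 to 30.9), and its backgrounds 12.8 and 6.68. It ranked 1212 of 1311 by the smaller fold enrichment. The nearer ends of CLECL1 and CD69 are 18.1 kb apart, and this space held 4 summits of replicate 1 and 2 of replicate 2. The median background of the peaks inside CLECL1 was 5.95 in replicate 1 (4 peaks) and 6.68 in replicate 2 (1 peak). Inside CD69 it was 14.7 (2 peaks) and 7.77 (1 peak), higher in both lists but from very few peaks.

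The ligand gene CLEC2D had peaks of both replicates at its start, but they did not overlap. The replicate 1 peak, from 9669754 to 9670100, had its summit 187 bp inside the gene, a fold enrichment of 3.93 and a pileup of 43 (31.1 to 57.9) over 10.2. Replicate 2 had a peak on each side of it, with summits 564 bp before the start (fold enrichment 2.96, pileup 25) and 1277 bp after it (3.37, pileup 24). The gaps to the replicate 1 peak were 482 and 791 bp, and the promoter printed above falls into the first of them. CLEC2D therefore counts as a gene with no region of both lists within 10 kb, although each list has a peak within 1 kb of its start. The nearest region of both lists lay 22.6 kb away, inside CLECL1.

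KLRB1, which encodes the receptor for CLEC2D on natural killer cells and T cell subsets, had no peak over it in either list. The nearest was a replicate 2 peak 9.71 kb upstream of its start, inside the transcribed pseudogene LOC374443, with a fold enrichment of 4.05 and a pileup of 18 (10.7 to 28.4) over 3.69. The nearest replicate 1 summit was 40.2 kb away and the nearest region of both lists 114 kb away. With so few fragments at a typical peak, this does not show that BCL6 was absent from KLRB1.

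Inside LOC374443, between KLRB1 and CLEC2D, each list had 2 peaks and none was shared. Those of replicate 2 had backgrounds of 3.69 and 5.19. Those of replicate 1 had the highest and second highest backgrounds of all members, 25.5 and 18.7, at the 99.8th and 98.7th percentile of the replicate 1 list. The first of them, with a pileup of 51 (38.0 to 67.1), covers the GC-rich promoter of LOC105369728, and its fold enrichment of 1.96 was the lowest of the interval. Its pileup equalled that of the peak at the upper end of CD69, where the background of 10.8 gave a fold enrichment of 4.40.

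The activating receptor gene KLRF1 and its ligand gene CLEC2B each had regions of both lists near an end. Below KLRF1, 5.58 kb from its lower end and 33.6 kb above CD69, a region from 9793633 to 9795466 had the second highest fold enrichments of the interval, 5.33 and 6.40. Its pileups of 41 (29.4 to 55.6) and 34 (23.5 to 47.5) stood over low backgrounds of 6.88 and 4.47, the latter the lowest of the 10 regions in that list. A weaker region lay 2.03 kb from KLRF1, with fold enrichments of 2.88 and 3.55, pileups of 33 and 35 and backgrounds of 10.8 and 9.13. Nothing was called inside the 45.0 kb of KLRF1.

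At CLEC2B a region from 9866568 to 9869101 lay inside the gene, 1.99 kb from its upper end, with fold enrichments of 4.44 and 3.78 and pileups of 34 (23.5 to 47.5) and 28 (18.6 to 40.5). The backgrounds were nearly equal, 6.88 and 6.68. Beyond this end each list had 1 more peak, 881 bp outside in replicate 1 (fold enrichment 3.28) and 302 bp outside in replicate 2 (2.52), and these were 269 bp apart. As at CLEC2D, the lists placed peaks side by side without overlap. The genes CLEC2A and KLRF2 above CLEC2B had no peak inside them within the interval. No peak of either list lay in the 68.1 kb between the regions near KLRF1 and CLEC2B, nor in 50.3 kb that hold most of CLEC2D and the lower part of CLECL1.

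**Figure D3:**
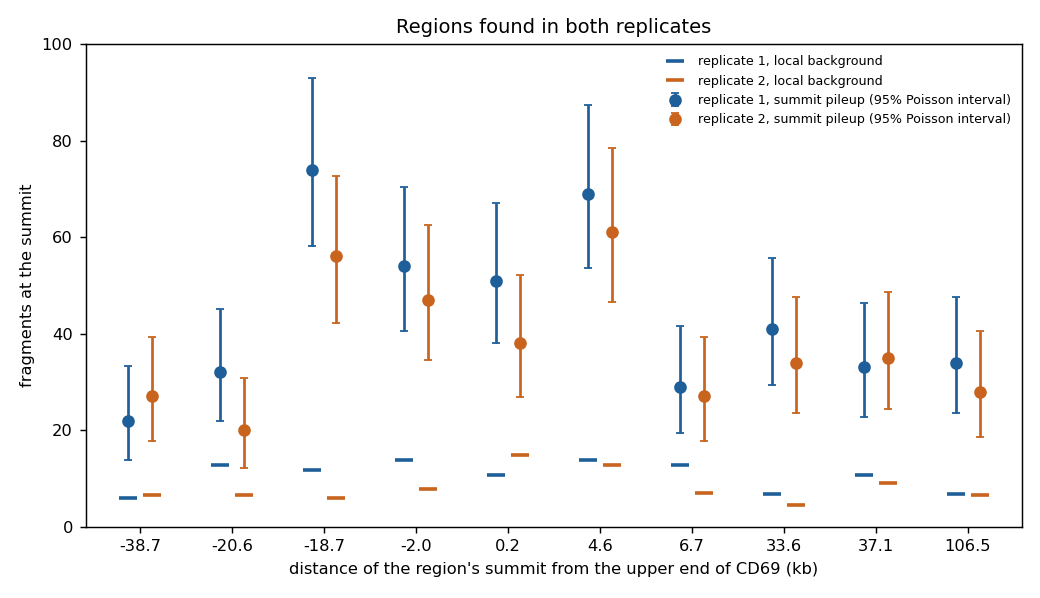
Summit pileup with its 95% Poisson interval (circles) and local background (dashes), in fragments, of the 10 regions found in both replicates, ordered by distance in kb from the upper end of CD69. The pileup intervals of the replicates overlap for each region, while the backgrounds 18.7 kb below CD69's upper end are 11.8 and 5.93.

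Set side by side, the 10 regions of both lists differed between replicates more in background than in pileup. The ratio of pileups, replicate 1 over replicate 2, ran from 0.815 to 1.60 with a median of 1.18, and its median over all 1311 regions was 1.20. The ratio of backgrounds ran from 0.729 to 1.99 with a median of 1.36, and its median over all was 1.30. The ratio of fold enrichments ran from 0.617 to 1.79, and replicate 1 had the larger value in 3 of 10. The medians of pileup and background were thus close to those of the whole set. Summits were between 4 and 325 bp apart, within 200 bp in 5 of the 10.

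The regions were ordinary in fold enrichment and high in pileup. The median of the smaller fold enrichment was 3.53 for the 10 and 3.30 for all 1311, and 6 of the 10 lay above the latter. The median of the smaller pileup was 33.5 against 25, with 8 above, and that of the smaller background 6.81 against 5.44, with 9 above. Among all 38 peaks, 21 of 23 lay above the median pileup of the replicate 1 list and 12 of 15 above that of the replicate 2 list, with 1 more equal to it. In fold enrichment 10 of 23 and 6 of 15 lay above it.

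The background of these peaks was high together with that of their chromosome. The median over the peaks of the interval was 10.2 in replicate 1 and 6.68 in replicate 2. Over the other peaks of chromosome 12 it was 8.36 and 6.22, and over the other chromosomes 5.90 and 4.47. In both replicates chromosome 12 had the highest median of the 23 chromosomes, 8.63 and 6.41, and the next were chromosome 19 at 6.88 in replicate 1 and chromosome 20 at 5.73 in replicate 2. The interval holds 6.13% and 5.56% of the chromosome's peaks, and without it the ratio of chromosome 12 to the others was 1.42 in replicate 1 and 1.39 in replicate 2.

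**Figure D4:**
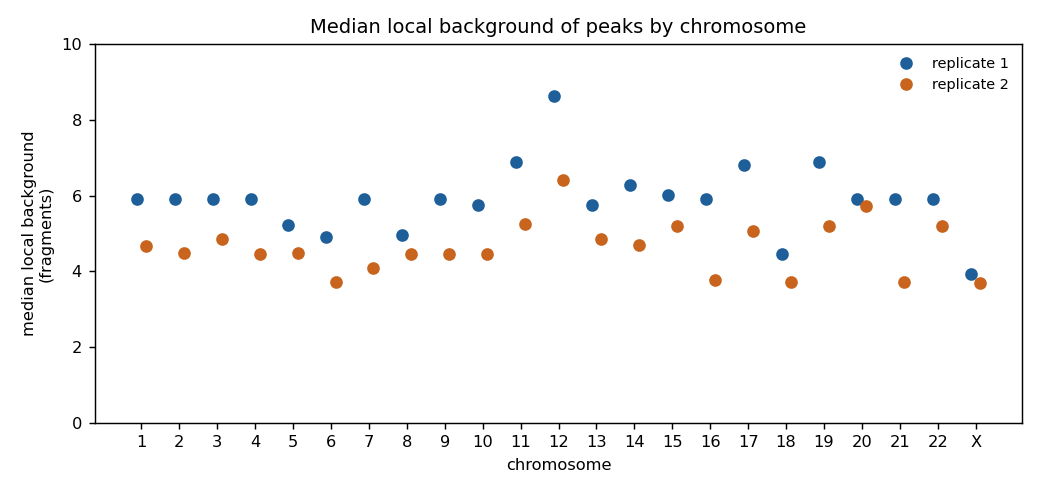
Median local background of peaks (fragments) on each chromosome, with 1 point for each replicate. Chromosome 12 has the highest median in both, at 8.63 and 6.41.

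The raised level was not even along the chromosome. In bins of 10 Mb, the 6 bins up to 60 Mb had replicate 1 medians from 8.84 up to 10.5, while those of replicate 2 lay between 5.73 and 8.94. From 60 Mb on, the median over all peaks was 5.90 and 4.28, which is 1.00 and 0.957 times that of the other chromosomes. Single bins beyond it were nevertheless above the other chromosomes in both lists. The bin from 70 to 80 Mb had medians of 6.67 and 6.41 (8 peaks in each list), and that from 120 to 130 Mb had 7.84 and 5.05 (25 and 18 peaks). The bin from 80 to 90 Mb had 6.88 and 9.64, from 5 peaks and 1. The bound at 60 Mb was chosen after the bins had been seen. Up to 60 Mb and without the interval, the medians were 9.88 and 8.16, so the peaks of the interval lay close to their neighbours in replicate 1 (10.2) and below them in replicate 2 (6.68). Within 5 Mb on either side the medians were 9.93 and 7.79. The same segment had higher pileups, 32 and 28 against 23 and 20 on the other chromosomes, and lower fold enrichments, 3.23 and 3.33 against 3.55 and 3.78. What raises the background there was not tested.

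**Figure D5:**
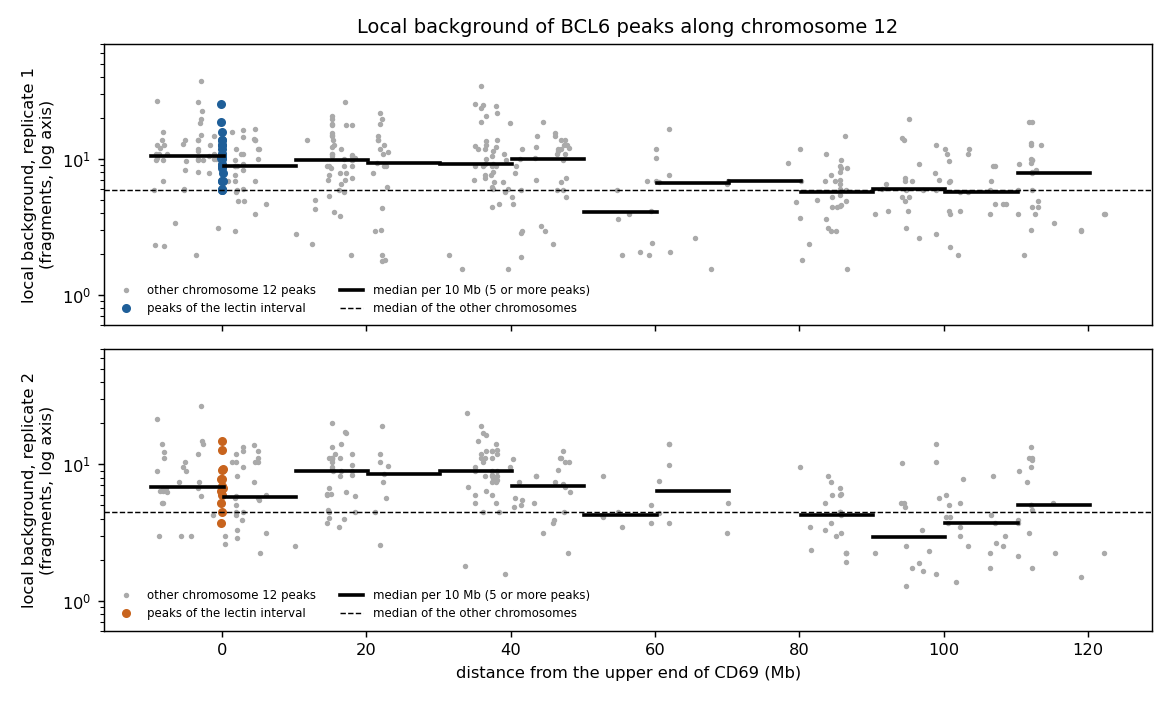
Local background of every chromosome 12 peak (fragments, log axis) in replicate 1 (upper panel) and replicate 2 (lower panel), by distance in Mb from the upper end of CD69. Coloured points are peaks of the interval, solid lines medians per 10 Mb of the chromosome with at least 5 peaks, and the dashed line the median of the other chromosomes (5.90 and 4.47), which the solid lines exceed throughout from the left edge to about 50 Mb and in some bins beyond.

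Among the other lectin genes of the natural killer complex, a region of both lists near an end was seen for genes of this interval only. Of 22 such genes from KLRG1 to KLRC1, 4 had a summit of both lists within 10 kb of an end (CLECL1, CD69, KLRF1 and CLEC2B), where 4.72% of all 19974 protein-coding genes did. All 4 were among the 8 lectin genes with an end in the interval, and the list includes the genes by which the interval was chosen. For the 13 genes from CLEC12A to KLRC1, which lie above the interval, the nearest such region was the one at CLEC2B, 83.9 to 575 kb away. Single lists reached further, and also hold more genes in all: 15.2% of all protein-coding genes had a replicate 1 summit within 10 kb of an end and 11.3% a replicate 2 summit. Replicate 2 had a peak inside OLR1, an oxidised lipoprotein receptor, 5.07 kb from the nearer end of the gene. It had another inside KLRD1 (CD94), a partner of the NKG2 receptors, 4.94 kb from the nearer end. Replicate 1 had a peak 0.923 kb from KLRG1, an inhibitory receptor. The neighbours A2ML1, PZP and A2M, which encode protease inhibitors and are no lectins, had no peak of either list within 50 kb of an end.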

How the data were processed

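BCL6 CUT&RUN peaks of 2 biological replicates of SUDHL5 were analysed; 2 IgG libraries are labelled and were not analysed here. The submitters' processing notes name build hg38 and MACS2, a peak caller, with Bowtie2 (alignment), cutadapt, FastQC, Picard, SAMtools, deepTools and bedtools; their settings and order, and the control the caller used, are not stated there. The deposited narrowPeak lists, called per sample, hold for each peak a fold enrichment (ratio of summit to local background), −log10 of p and q, and a score equal to 10 times −log10 q cut to a whole number, which was not used. The smallest deposited −log10 q was 1.31 in each list.

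Pileup and background were solved from fold enrichment, taken as (pileup + 1) / (background + 1), and from p, taken as the Poisson probability of exceeding the pileup; this gave whole pileups for 5233 of 5237 and 3532 of 3536 peaks, and the step was tested on simulated data. Peaks sharing at least 1 bp were merged, and each region takes the strongest peak by −log10 q of each list. Coordinates are 1-based. Genes and promoters came from RefSeq (GRCh38.p14); genes without a promoter entry have ends but no strand here, and the direction of CD69 is stated from general knowledge. The interval, its genes and the gene lists were chosen with earlier results of these data known. Every peak of the interval is accounted for, and named genes are those with an end in it, plus listed genes near a region of both lists. The listed early activation genes without such a region are named too, as are CLEC12A and KLRC1, which bound a run of lectin genes. OLR1, KLRD1, KLRG1 and the 3 protease inhibitor genes, and the promoter of LOC105369728, were named after their values were seen. No test was made: there is 1 group of 2 replicates. The alternatives were other matching rules, stricter q, wider bounds, single lists, shifted tiles and other peak sets for the chromosome 12 background. Python 3.11.15, NumPy 2.4.6, pandas 2.3.3, SciPy 1.17.1 and matplotlib 3.10.9 were used.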

Additional observations from a re-analysis of the deposited data

How the results depend on the processing

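The 10 regions of both lists fell to 4 with a reciprocal overlap of at least 50%, to 5 with summits within 200 bp, to 5 with −log10 q set to 5 or more and to 4 with 10 or more. The regions 18.7 kb and 2.02 kb below the upper end of CD69 were kept under each of these 4 rules; the one 4.63 kb above it was lost under reciprocal overlap, and the one 5.58 kb below KLRF1 under the distance of summits. Single lists gave 15 to 23. At the same bounds of 5 and 10, replicate 1 peaks in the interval fell from 23 to 9 and 5, and replicate 2 peaks from 15 to 7 and 4. Widening the bounds by 50 kb added none. The share of tiles with as many regions as the interval stayed between 0.0422% and 0.0738%. The background of chromosome 12 over the other chromosomes, 1.449 as the mean of both replicates (SD 0.0200, n = 2), was 1.405 without the interval, 1.502 for regions of both lists, 1.612 with −log10 q of at least 5, 1.435 to 1.463 in single replicates and 1.438 away from gene ends. In an alternative added after seeing the data it was 1.734 up to 60 Mb and 0.9783 beyond, from 1.00 in replicate 1 and 0.957 in replicate 2, so that only replicate 2 fell below the other chromosomes. The 4 lectin genes with a region of both lists within 10 kb became 1 within 1 kb and 7 within 50 kb (2.64% and 9.81% of all genes), 7 with replicate 1 alone (15.2% of all genes) and 9 with replicate 2 alone (11.3%). No paired analysis was possible because only the BCL6 group has values in use, and a lone group cannot be paired. Pileups of 18 to 74 limit what can be told: each rests on few fragments, and a gene with no peak cannot be called free of BCL6.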

Other observations

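CD69 was set beside 13 other genes that are switched on early in activated lymphocytes, a list chosen with earlier results of these data known. Including CD69, 6 of the 14 had a summit of both lists within 10 kb of an end, where 4.72% of all protein-coding genes did. NR4A3, an orphan nuclear receptor, had a region with summits 0.082 kb (replicate 1) and 0.275 kb (replicate 2) from an end. Its fold enrichments were 7.15 and 5.25 (pileups 51 and 40, backgrounds 6.27 and 6.80). EGR2, a zinc finger factor, had one at 2.52 kb in both lists with 5.30 and 5.48. Its relative EGR3 had one with 7.71 at 0.288 kb in replicate 1 and 3.03 at 1.75 kb in replicate 2. MYC had 3.01 at 0.661 kb in replicate 1 and 5.62 at 0.164 kb in replicate 2. IER2, an immediate early gene, had 3.40 at 1.769 kb in replicate 1 and 2.99 at 2.035 kb in replicate 2.

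The region at the upper end of CD69 had pileups of 51 and 38, against 51 and 40 at NR4A3, and fold enrichments of 4.40 and 2.46 over backgrounds of 10.8 and 14.8. CD86, EGR1 and DUSP2 had a replicate 1 summit within 1 kb and no region of both lists within 50 kb. Their nearest replicate 2 summits were 22.2, 106 and 25.3 kb from an end. Of the 14 genes, 7 had a replicate 1 summit within 1 kb, where 8.4% of all protein-coding genes did. For replicate 2 it was 3 of the 14, where 6.27% of all did. For CD83, NR4A1, FOS, JUNB and TNFAIP3 neither list had a summit within 10 kb of an end.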
